A study of Mus musculus with 16 samples.

Results

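The transcripts of 10 circadian clock genes were measured by RNA sequencing in the mouse stomach corpus. The genes were taken by symbol from a table of 24964 gene symbols. They are the period genes Per1, Per2 and Per3, the nuclear receptors Nr1d1 and Nr1d2, the output factors Dbp and Tef, and the activators Arntl (also called Bmal1), Clock and Npas2. Each was found under its own symbol, and all 10 were among the 15385 genes expressed well enough to be tested.

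There were 16 libraries of female mice aged 8 weeks, 4 in each of 4 groups, each from tissue punched out of the corpus at the lesser curvature (biopsy of 4 mm). WT mice were of the strain C57BL/6, and TTPΔARE mice were congenic C57BL/6 mice whose Zfp36 gene, which encodes tristetraprolin (TTP), lacks the AU-rich element of its transcript. In condition A (groups WT-A and TTP-A) the label names gastric inflammation after adrenalectomy, an operation that takes out the adrenal glands, the main source of glucocorticoids and of other hormones as well. In condition S (WT-S and TTP-S) the label names spasmolytic polypeptide-expressing metaplasia, and neither the meaning of the letter nor any operation is given. The hour at which tissue was taken is not given in the sources used here, so each value is a single reading of transcripts that vary over the day. Nothing in the labels says that the libraries of a group came from separate animals, so p-values measure only the spread between these samples, which may be technical.

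In the clock of most mammalian cells, ARNTL pairs with CLOCK or with its relative NPAS2 and switches on genes that carry E-boxes, among them the Per, Cry, Nr1d, Dbp and Tef genes. PER and CRY proteins then block the activators, and NR1D1 and NR1D2 repress Arntl through ROR elements, so that transcripts of the activators and of their targets peak at different times of day. DBP, TEF and HLF carry the rhythm to further genes through D-boxes. Peripheral tissues, the stomach among them, run this loop under cues that include feeding and the glucocorticoid hormones of the adrenal cortex, and Per1 is known as a gene that glucocorticoids induce directly.

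These elements were sought in the promoters of the RefSeq annotation of GRCm38.p6, each a window from 250 bases before to 50 bases after a transcription start. Of the 10 genes, 9 matched, with 14 windows, and Per2 did not. Exact letters were sought on both strands, namely CACGTG for the E-box, TTATGTAA or TTACGTAA for the D-box, TAGGTCA for the ROR element, and GAACA followed after 3 bases by TGTTC for the glucocorticoid element. None of these overlapped another. The stretches with a match are shown in transcript direction with the match in capitals, because clock factors are known to bind such letters.
Per1, E-box, chr11:69098771-69098800, plus strand: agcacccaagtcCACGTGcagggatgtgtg
Per3, D-boxes, chr4:151044804-151044882, minus strand: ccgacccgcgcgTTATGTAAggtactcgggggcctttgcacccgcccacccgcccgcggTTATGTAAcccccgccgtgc
Tef, E-box of the upstream start, chr15:81802534-81802563, plus strand: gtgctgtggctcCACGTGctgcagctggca
Tef, E-box of the downstream start, chr15:81811264-81811293, plus strand: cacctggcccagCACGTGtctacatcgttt
Arntl, ROR element, chr7:113207530-113207558, plus strand: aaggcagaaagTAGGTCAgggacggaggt
Ciart, E-boxes, chr3:95882255-95882356, minus strand: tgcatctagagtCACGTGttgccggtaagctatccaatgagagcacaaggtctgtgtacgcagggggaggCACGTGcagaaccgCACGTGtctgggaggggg

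The E-box of Per1 began at position -166 from the start, and the 2 D-boxes of Per3 at -205 and -158. Each start of Tef had an E-box, at -127 and -138, and the ROR element of Arntl lay in the transcribed part at position 31. Ciart, a clock repressor outside the 10 genes, had 3 E-boxes, at -116, -58 and -44. It is one of 20 matched genes of the lists of other clock and clock output genes described further on, of which 6 had an E-box (the others are Cry1, Bhlhe41, Tspan4, Coq10b and Lonrf3, with 1 each), 1 a D-box (Coq10b) and 1 a ROR element (Nfil3). E-boxes were present in 7.15% of all 32851 windows, D-boxes in 1.06%, ROR elements in 2.61% and the glucocorticoid element in 0.0578%. Counted in the same way, 3 of the members' 14 windows had an E-box, 1 a D-box, 1 a ROR element and none the glucocorticoid element, and by gene the E-boxes belonged to 2 of 9. A match is a description of the letters, and no match says only that these letters are not in this window.

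Library totals ranged from 17453930 to 25849472 counts, and Zfp36 was at 55.1 to 88.6 CPM (counts relative to the library total, scaled by the trimmed mean of M-values, TMM) in WT and 110 to 131 CPM in TTPΔARE libraries, so the genotypes did not overlap at the targeted gene. WT-A 3 and WT-A 4 stood apart, since GC-rich transcripts read high and GC-poor ones low in them (Spearman rho of GC content with the deviation from each gene's median 0.72 and 0.74 across genes, against at most 0.30 in absolute value elsewhere). Values from the other 14 libraries are therefore given beside results that rest on this pair. The 11 measured corpus markers, such as Atp4a, Pgc and Gkn1, were present in every library and summed to 151882 to 230880 CPM in S and 101674 to 178716 in A for WT mice, and to 203709 to 210869 in S and 142746 to 203865 in A for TTPΔARE mice. Pgc was the largest part of these sums, with a mean of 115289 CPM in WT-S and 65191 in WT-A. Of the 11 estimates in WT mice, 10 were lower in A and 1 was higher. Beside the marker counts that follow, the share of all genes called was 18.8% in WT mice (2891 genes, and 1620 in the 14 libraries) and 2.9% in TTPΔARE mice. In WT mice 3 of the 11 were called lower in A (7 in the 14 libraries), and in TTPΔARE mice 1 was lower and 1 higher. Of 8 smooth muscle markers, 5 were called higher in A in WT mice, 1 in the 14 libraries, and none was called in TTPΔARE mice. The 12 squamous markers summed to 65.7 to 435 CPM in S and 155 to 2318 in A for WT mice, and to 149 to 1181 in S and 79.9 to 643 in A for TTPΔARE mice, with up to 2 of them at 0 in a WT-S library and up to 5 in a TTP-A library. Of the 11 tested, all had a higher estimate in A in WT mice and 2 were called higher (4 of 12 in the 14 libraries), and none was called in TTPΔARE mice. Of 8 adipose markers, 3 were called lower in A in TTPΔARE mice, with sums of 126 to 188 against 222 to 364 CPM and none at 0. In WT mice all 8 had a higher estimate in A and none was called, with sums of 164 to 219 CPM in S, 158 and 149.9 in WT-A 1 and 2, and 259.9 and 279 in WT-A 3 and 4. The 10 immune markers summed to 32.3 to 49.8 CPM in S and 39.3 to 64.4 in A for WT mice, and to 31.7 to 39.8 in S and 45.2 to 65.1 in A for TTPΔARE mice, without overlap in the latter. Among them Cd68 was called higher and Jchain lower in A in WT mice, and Ptprc and Siglecf higher in TTPΔARE mice. Jchain lost that call in the 14 libraries. The part of these cell types in the results on the clock genes was not tested, and in bulk tissue fewer cells of a type and less RNA per cell cannot be told apart.

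All 10 genes were expressed in every library. Per kilobase of merged exons, levels in WT-S were highest for Nr1d1 (35.6 ± 4.79 CPM per kb, SD, n = 4) and Dbp (31.8 ± 6.07), whose libraries overlapped. Nr1d2 (21.3 ± 1.84), Tef (17.8 ± 1.46) and Per1 (17.1 ± 2.46) followed. Nr1d2 did not overlap Dbp, while Tef overlapped both Nr1d2 and Per1. Per2 (11.5 ± 0.607), Per3 (6.03 ± 0.81) and Clock (4.56 ± 0.14) came next, with no overlap between neighbours from Per1 to Arntl. Arntl (1.81 ± 0.228) and Npas2 (1.81 ± 0.357) were the lowest and overlapped. In WT-A, Per1 stood at 5.30 ± 0.71 CPM per kb, between Per2 (9.19 ± 1.35) and Per3 (4.32 ± 0.522).

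**Figure D1:**
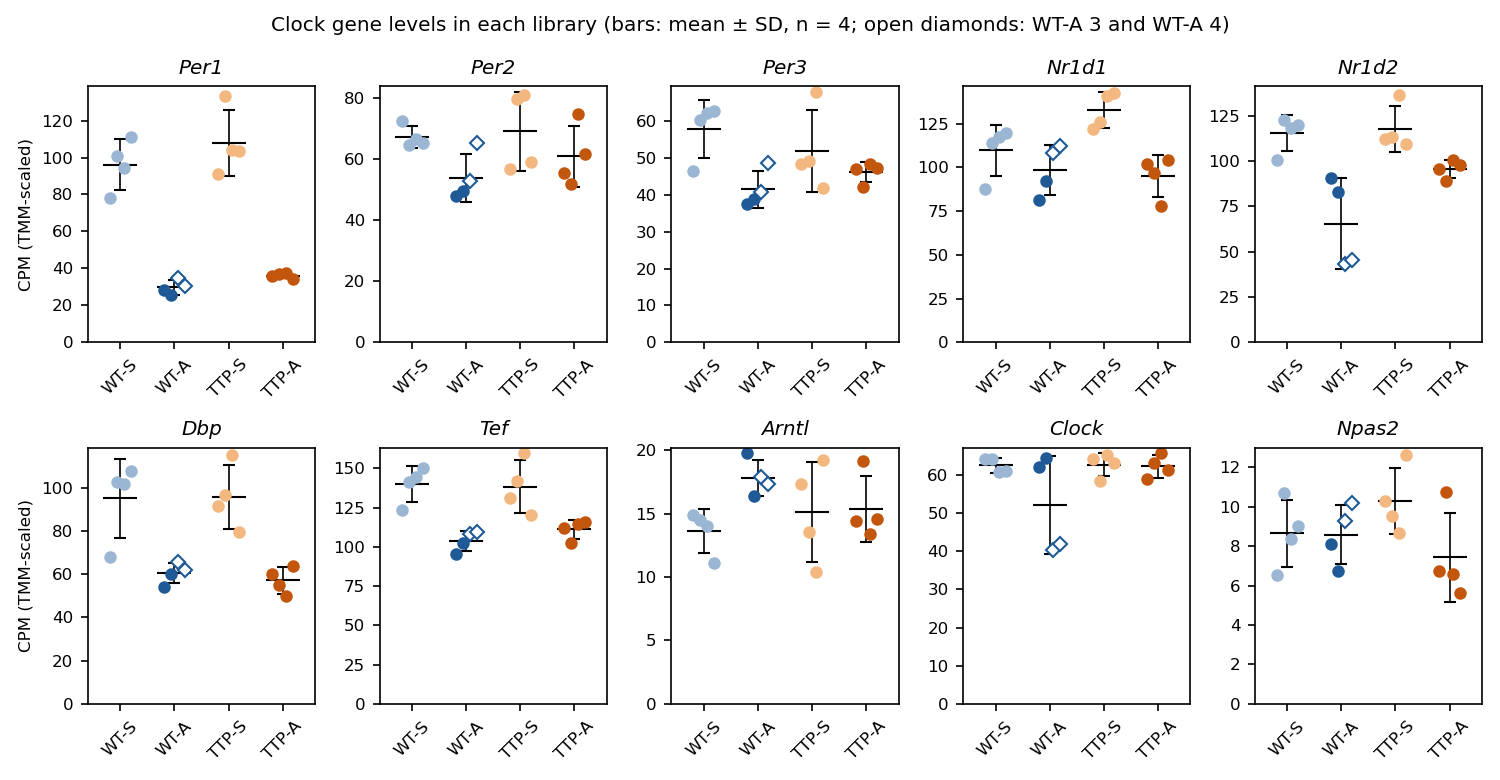
Level of each clock gene in every library, in CPM on TMM-scaled library totals, by group. Points are libraries, bars are the mean and SD of 4 libraries, and open diamonds are WT-A 3 and WT-A 4. Per1 lies at 78.1 to 111 CPM in WT-S and at 25.5 to 35.0 in WT-A, while Clock is near 62 CPM except in the open diamonds.

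Per1, Dbp and other genes of the repressor and output arm were lower in condition A than in S, and no member was called higher. In WT mice 5 of the 10 genes were lower in A than in S at an adjusted p under 0.05 by edgeR (Per1, Per3, Nr1d2, Dbp and Tef), where 18.8% of all genes tested passed in either direction and 8.99% were lower. In TTPΔARE mice 3 were lower (Per1, Nr1d1 and Dbp), where 2.9% of all genes passed and 1.35% were lower. The median log2 difference of the 10 genes was -0.38 in WT and -0.31 in TTPΔARE mice, beside 0.0094 and -0.0010 over all genes tested. All 4 A libraries lay below all 4 S libraries for 4 of the 10 genes in WT (Per1, Nr1d2, Dbp and Tef), as for 8.48% of all genes, and for 5 in TTPΔARE mice (Per1, Nr1d1, Nr1d2, Dbp and Tef), as for 6.77% of all genes. The groups share no library between these 2 comparisons, but the calls of both came from a single fit over all 16 libraries. They are therefore not independent. Without WT-A 3 and WT-A 4, the members called in TTPΔARE mice went from 3 to 5, and all genes called from 446 to 977.

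Per1, a period repressor, had the largest difference of the 10 genes in both genotypes. It was at 78.1, 101, 94.5 and 111 CPM in WT-S 1 to 4, and at 28.5, 25.5, 35.0 and 30.4 CPM in WT-A. In TTP-S it was at 90.9, 133, 104 and 104 CPM, and in TTP-A at 35.9, 36.7, 37.5 and 34.4 CPM. Every A library lay below every S library of either genotype, and TTP-A had the narrowest spread (coefficient of variation 3.62%, against 13.4% to 16.7% in the other groups). Levels were 3.22-fold lower in WT-A than in WT-S (log2 -1.69, SE 0.12, edgeR adjusted p = 6.05e-06) and 2.99-fold lower in TTPΔARE mice of condition A than of S (log2 -1.58, SE 0.12, adjusted p = 1.51e-05). In the 14 libraries the WT difference was -1.83. The difference between genotypes in this response was 0.11 on the log2 scale (95% interval -0.25 to 0.47, adjusted p = 0.772).

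Per2 and Per3, the other period genes, differed far less from S. Per3 was at 46.4, 60.3, 62.4 and 62.8 CPM in WT-S and at 37.5, 39.0, 40.7 and 48.8 CPM in WT-A. Only WT-S 1 reached into the range of WT-A, and the difference was -0.48 (SE 0.13, edgeR adjusted p = 0.0216). The call was kept in 9 of 9 other settings (adjusted p = 0.0045 to 0.0498), among them the 14 libraries (-0.60, adjusted p = 0.0264). On leaving out a single library, it was lost without WT-S 2 (-0.46, adjusted p = 0.0617), WT-S 3 (-0.44, 0.0591), WT-S 4 (-0.44, 0.0632) or WT-A 3 (-0.47, 0.0583). In TTPΔARE mice Per3 was at 48.3, 49.3, 68.0 and 42.0 CPM in S and at 47.1, 42.1, 48.5 and 47.2 CPM in A, so that the groups overlapped (-0.17, 95% interval -0.45 to 0.11, adjusted p = 0.628).

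Per2 was at 72.4, 64.5, 66.7 and 65.3 CPM in WT-S and at 47.9, 49.4, 52.7 and 65.3 CPM in WT-A. Only WT-A 4 reached the range of WT-S, and the difference of -0.32 (SE 0.13) missed the threshold (edgeR adjusted p = 0.0999). It passed without WT-A 4 (-0.43, adjusted p = 0.0448) and with offsets for GC content (-0.42, adjusted p = 0.0341). In TTPΔARE mice Per2 was at 56.7, 79.6, 81.0 and 59.0 CPM in S and at 55.5, 51.8, 74.7 and 61.5 CPM in A. Those groups overlapped widely (-0.18, 95% interval -0.47 to 0.10, adjusted p = 0.597).

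Nr1d1 and Nr1d2 encode REV-ERB receptors, which repress Arntl. Nr1d1 was at 122, 126, 141 and 142 CPM in TTP-S and at 102, 96.6, 77.8 and 104 CPM in TTP-A, with no overlap. Its difference of -0.48 (SE 0.12) was called with all libraries (edgeR adjusted p = 0.0421) and in 9 of 9 other settings (adjusted p = 0.0046 to 0.0419). It stayed called in only 1 of the 8 fits that left out a library of these groups. The 7 fits that lost the call gave -0.52 without TTP-S 1 (adjusted p = 0.0588), -0.50 without TTP-S 2 (0.0886), -0.45 without TTP-S 3 (0.111), -0.44 without TTP-S 4 (0.135), -0.52 without TTP-A 1 (0.102), -0.40 without TTP-A 3 (0.107) and -0.53 without TTP-A 4 (0.0851). In WT mice Nr1d1 was at 87.8, 114, 117 and 119.7 CPM in S and at 81.2, 92.0, 108 and 112 CPM in A, with overlap and a difference of -0.16 (95% interval -0.41 to 0.09, adjusted p = 0.345; 14 libraries -0.34, adjusted p = 0.101). Whether the response of Nr1d1 differed between genotypes was tested by the interaction, which gave -0.32 (95% interval -0.68 to 0.03, adjusted p = 0.360).

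Nr1d2 was at 101, 122, 118 and 120.0 CPM in WT-S and at 90.5, 83.1, 42.9 and 45.1 CPM in WT-A. All WT-A libraries lay below WT-S, and the lowest values were those of the GC pair, WT-A 3 and WT-A 4. The difference of -0.82 (SE 0.19, edgeR adjusted p = 0.0103) was -0.41 (SE 0.09, adjusted p = 0.0154) in the 14 libraries without this pair. It lost its call when only WT-A and WT-S were fitted (-0.81, adjusted p = 0.0838). In TTPΔARE mice Nr1d2 was at 112, 113, 136 and 109 CPM in S and at 95.3, 88.7, 101 and 97.7 CPM in A, again without overlap. There the difference of -0.30 was not called in the fit of all libraries (SE 0.19, adjusted p = 0.503) and was called in the 14 libraries (SE 0.08, adjusted p = 0.0329) and when only these groups were fitted (adjusted p = 0.0293).

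Dbp and Tef are transcription factors of the PAR bZIP family that act at D-boxes, and both are textbook targets of the activators. Dbp was at 68.2, 103, 102 and 108 CPM in WT-S and at 54.2, 60.3, 65.7 and 62.1 CPM in WT-A. It was at 91.6, 96.8, 116 and 79.8 CPM in TTP-S and at 60.4, 54.8, 49.9 and 64.1 CPM in TTP-A. No A library overlapped an S library of its genotype. The fall was 1.57-fold in WT (log2 -0.65, SE 0.13, edgeR adjusted p = 0.00595) and 1.67-fold in TTPΔARE mice (log2 -0.74, SE 0.13, adjusted p = 0.0122), and Dbp kept both calls in every fit that left out a library. Its interaction was -0.09 (95% interval -0.49 to 0.31, adjusted p = 0.834).

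Tef was at 124, 141, 145 and 150.4 CPM in WT-S and at 95.5, 103, 108 and 109 CPM in WT-A. In TTP-S it was at 131, 142, 160.1 and 120.1 CPM, and in TTP-A at 112, 102, 114 and 116 CPM. Both pairs of groups were free of overlap. The WT difference was -0.43 (SE 0.08, edgeR adjusted p = 0.0044). The TTPΔARE difference of -0.32 (SE 0.08) just missed the threshold (adjusted p = 0.0525) and passed it in 5 of the other 9 settings, among them the 14 libraries (adjusted p = 0.0329), DESeq2 (adjusted p = 0.0112) and the replicate block (adjusted p = 0.0497). It missed the threshold in all 8 fits that left out a TTP-S or TTP-A library (-0.38 to -0.24, adjusted p = 0.0559 to 0.159).

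Some of these genes overlap another gene on the opposite strand, and the counting is not stated to use strand, so reads from the shared bases cannot be told apart. In the GENCODE annotation Nr1d1 shares 263 of its 3077 exon bases with Thra, a thyroid hormone receptor gene, and Dbp shares 539 of 2993 with Sphk2, a sphingosine kinase gene. Thra differed by -0.04 in WT and -0.15 in TTPΔARE mice, and Sphk2 by 0.19 and 0.15, and none of these was called. Tef shares 193 bases with Gm17597 and Arntl 33 with Gm45355, both unnamed gene models.

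None of the 3 activators was called in either genotype. Arntl was at 14.9, 14.5, 14 and 11.1 CPM in WT-S and at 19.7, 16.4, 17.9 and 17.3 CPM in WT-A. It was the only member whose WT-A libraries all lay above WT-S, yet the difference of 0.39 (SE 0.16) was not called (edgeR adjusted p = 0.0975). The share of all genes with every WT-A library above WT-S was not counted. In TTPΔARE mice Arntl was at 17.3, 13.5, 10.4 and 19.2 CPM in S and at 14.4, 19.2, 13.3 and 14.5 CPM in A. Those libraries overlapped fully (0.02, 95% interval -0.32 to 0.37, adjusted p = 0.976).

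Clock was at 64.3, 64.2, 60.8 and 61.0 CPM in WT-S and at 62.1, 64.4, 40.2 and 41.8 CPM in WT-A. The 2 low values were again WT-A 3 and WT-A 4, and the WT difference was -0.26 (edgeR adjusted p = 0.132) in 16 libraries and 0.02 (SE 0.06, adjusted p = 0.892) in 14. It was called without WT-A 1 (-0.36, adjusted p = 0.036) or WT-A 2 (-0.38, adjusted p = 0.0292), which leaves 1 library beside the pair. In TTPΔARE mice all 8 libraries lay between 58.5 and 65.9 CPM (difference -0.01, 95% interval -0.27 to 0.25, adjusted p = 0.986).

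Npas2 was at 6.55, 10.7, 8.36 and 9.01 CPM in WT-S and at 8.12, 6.73, 9.28 and 10.2 CPM in WT-A, which overlapped (-0.02, 95% interval -0.43 to 0.40, adjusted p = 0.955). It was at 10.3, 9.55, 8.70 and 12.6 CPM in TTP-S and at 6.72, 10.8, 6.58 and 5.65 CPM in TTP-A. Only TTP-A 2 reached the range of TTP-S. The difference of -0.47 (SE 0.20) was not called (edgeR adjusted p = 0.241) unless TTP-A 2 was left out (-0.70, adjusted p = 0.0284). Npas2 had the fewest counts of the 10 genes, 117 to 257 per library.

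**Figure D2:**
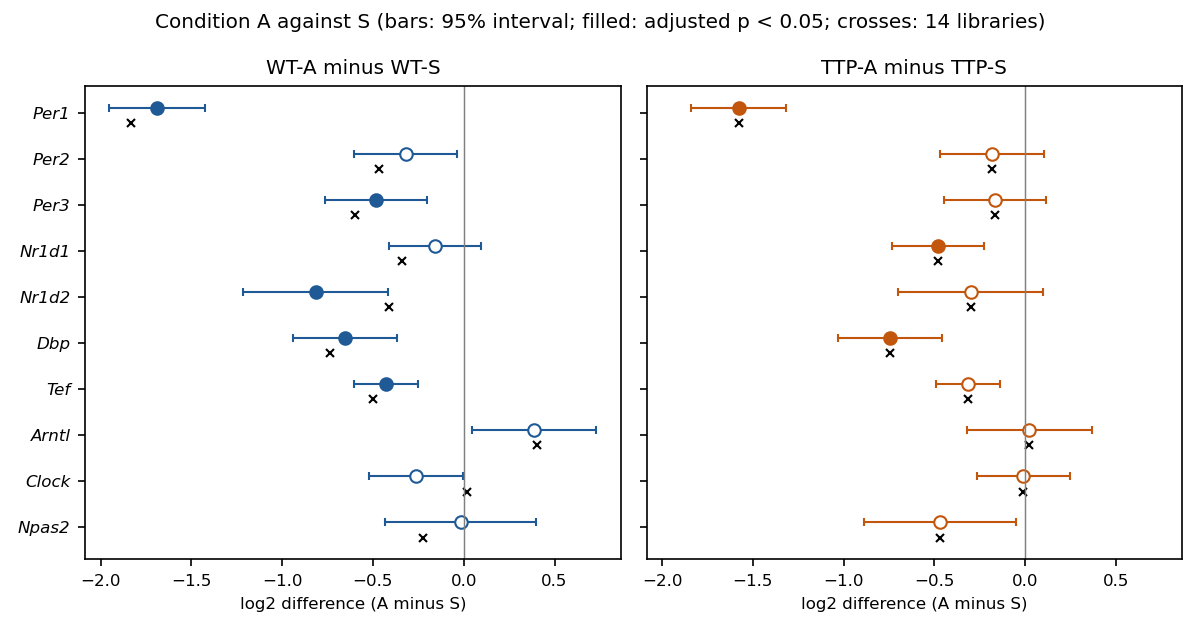
Log2 difference of A from S for each clock gene, in WT mice (left) and TTPΔARE mice (right). Points are edgeR estimates with 95% intervals, filled where the adjusted p is under 0.05, and crosses are the estimates from the 14 libraries without WT-A 3 and WT-A 4. Per1 lies farthest from 0 in both panels (-1.69 and -1.58), and the cross of Clock in WT lies at 0.02.

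The pair of WT libraries set apart by GC content bears on the members with the lowest GC content, Clock (40.9%) and Nr1d2 (41.8%). In WT-A 3 and WT-A 4, Clock lay at a mean log2 of -0.61 from its median over 16 libraries, where all genes of its GC class had a median of -0.77. Nr1d2 lay at -1.19, where its GC class had a median of -0.43. In WT-A 1 and WT-A 2, Clock lay at 0.02 and Nr1d2 at -0.21. Per1, with a GC content of 59.4%, lay at -0.73 in the pair and at -1.0 in WT-A 1 and WT-A 2, where its GC class had a median of 0.25 in the pair. Condition A and the GC trend cannot be told apart within the pair, since both libraries belong to WT-A.

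**Figure D3:**
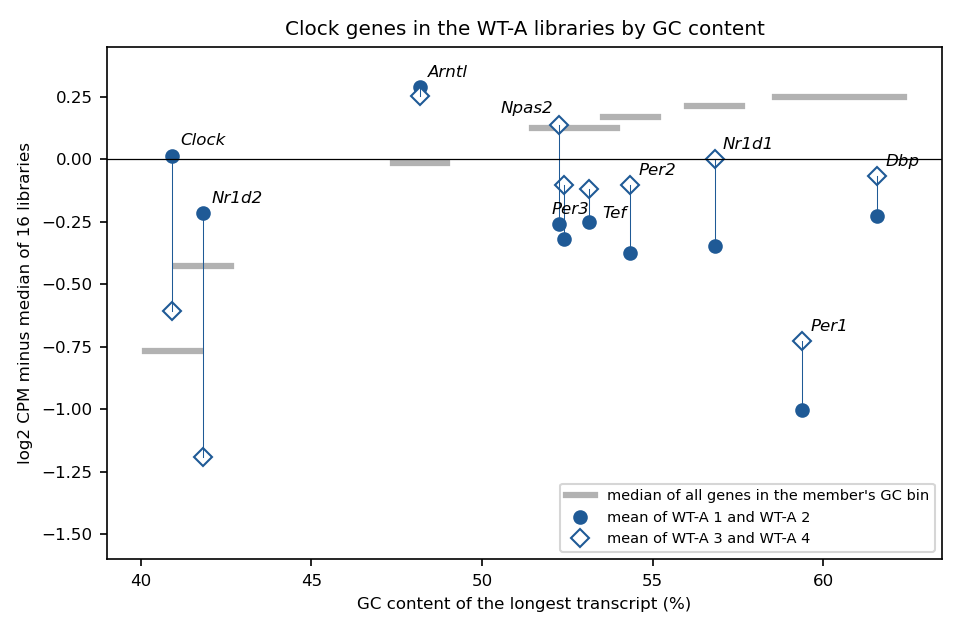
Position of each clock gene in the WT-A libraries (log2 CPM minus its median over 16 libraries) against transcript GC content. Filled points are means of WT-A 1 and WT-A 2, open diamonds are means of WT-A 3 and WT-A 4, and grey bars are medians in that pair over all genes of the member's GC class, drawn around the members rather than over the width of the class. The distance between the points is largest for Nr1d2 and Clock.

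No member differed between genotypes by edgeR in either condition. In S, 0 of 10 genes were called, where 0.0325% of all genes tested passed, and the differences of TTP-S from WT-S ran from -0.16 for Per3 to 0.28 for Nr1d1. Over all genes, 1153 had an unadjusted p under 0.05 in that comparison. Nr1d1 alone was free of overlap, with all TTP-S libraries above WT-S, but its edgeR adjusted p was 0.612 (95% interval 0.02 to 0.53). The share of all genes free of overlap in this comparison was not counted, so this cannot be read as a trait of Nr1d1. Per1 differed by 0.17 (95% interval -0.09 to 0.42, adjusted p = 0.872). Npas2 differed by 0.25 and Arntl by 0.15, Per2 by 0.039, Nr1d2 by 0.029, Dbp by 0.0094, Clock by 0.0045 and Tef by -0.016, each with an edgeR adjusted p of at least 0.899.

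In A, 0 of 10 genes were called as well, where 5.17% of all genes passed. The largest difference of TTP-A from WT-A was that of Nr1d2 (0.55, SE 0.19, edgeR adjusted p = 0.0897), which was 0.14 (adjusted p = 0.442) in the 14 libraries. It was called by DESeq2 (0.55, adjusted p = 0.0393) and without WT-A 1 (0.74, adjusted p = 0.0147) or WT-A 2 (0.68, adjusted p = 0.0412). Clock differed by 0.26 (adjusted p = 0.185), by 0.37 without WT-A 2 (adjusted p = 0.0493) and by -0.02 in the 14 libraries. Per1 was higher in 3 of 4 TTP-A libraries than in any WT-A library, with a difference of 0.28 (SE 0.12, adjusted p = 0.163; 14 libraries 0.42, adjusted p = 0.128). Arntl differed by -0.21 (adjusted p = 0.387; 14 libraries -0.23). Per2 differed by 0.18 (adjusted p = 0.393; 14 libraries 0.32), Per3 by 0.16 (0.448; 0.27) and Tef by 0.097 (0.455; 0.17). Npas2 differed by -0.21 (adjusted p = 0.504), Dbp by -0.080 (0.724) and Nr1d1 by -0.048 (0.817), and the 14-library estimates of these 3 were above 0 (0.00061, 0.0015 and 0.13).

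Tissue markers also differed between TTP-A and WT-A. Beside the marker counts that follow, 2.3% of all genes were called lower and 2.87% higher. The total called was 796 genes in 16 libraries and 292 in the 14 libraries. Of the 8 smooth muscle markers all had a lower estimate in TTP-A and 4 were called lower by edgeR, none in the 14 libraries. All 11 tested squamous markers had a lower estimate and none was called. Of the 11 corpus markers 1 was called higher, and 3 in the 14 libraries. The part of these markers in the comparison of genotypes was not tested.

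The response to A was compared between genotypes by the interaction, which called none of the 10 genes, where 0.0585% of all genes passed and 2344 had an unadjusted p under 0.05. The largest values were those of Nr1d2 (0.52, 95% interval -0.05 to 1.08, adjusted p = 0.359) and Npas2 (-0.45, 95% interval -1.04 to 0.14, adjusted p = 0.427). In the 14 libraries they were 0.11 and -0.24, and the largest there were those of Per3 (0.43, edgeR adjusted p = 0.366) and Arntl (-0.38, adjusted p = 0.570), with none called. In 16 libraries Per3 gave 0.32 (95% interval -0.08 to 0.71) and Arntl -0.36 (95% interval -0.85 to 0.12). Tef gave 0.11 (95% interval -0.14 to 0.36; 14 libraries 0.18), Per2 0.14 (14 libraries 0.28) and Clock 0.25 (14 libraries -0.026). Per1, Nr1d1 and Dbp, given above in 16 libraries, were at 0.25, -0.14 and -0.0070 in 14. So Per3, Nr1d2 and Tef, called in WT mice only, and Nr1d1, called in TTPΔARE mice only, were not shown to respond differently in the genotypes.

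Among 17 other genes of the clock mechanism, all tested, 5 passed in WT mice, 4 of them lower, beside 18.8% of all genes in either direction and 8.99% lower. In TTPΔARE mice 2 passed, both lower, beside 2.9% and 1.35% of all genes. The median log2 difference of the 17 was -0.05 in WT and 0.02 in TTPΔARE mice. Ciart, a repressor of the activator pair, fell in both genotypes. It was at 10.7, 10.9, 13.5 and 11.2 CPM in WT-S and at 4.58, 5.24, 6.59 and 5.74 CPM in WT-A (2.09-fold lower, log2 -1.06, SE 0.17, edgeR adjusted p = 0.00206). It was at 9.76, 16, 15.2 and 11.6 CPM in TTP-S and at 6.95, 4.35, 5.91 and 7.08 CPM in TTP-A (2.16-fold lower, log2 -1.11, SE 0.17, adjusted p = 0.00506). No A library overlapped S in either genotype.

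Bhlhe41, a helix-loop-helix repressor that competes at E-boxes, fell by 1.15 in WT (log2, edgeR adjusted p = 0.000603) and by 0.63 in TTPΔARE mice (adjusted p = 0.0297). In 9 of 9 other settings it was also called in TTPΔARE mice (adjusted p = 0.0020 to 0.0317). The TTPΔARE call was kept in 1 of the 8 fits that left out a library (adjusted p = 0.0296) and reached 0.108 without TTP-A 1, and the other 6 fits, without TTP-S 1, 2, 3 or 4 or TTP-A 3 or 4, gave values between these, with differences over all 8 of -0.69 to -0.58. Hlf, the third PAR bZIP factor, fell by 0.91 in WT (adjusted p = 0.000603) and differed by -0.35 in TTPΔARE mice (adjusted p = 0.111). Rora, an activator of Arntl, fell by 0.61 in WT (adjusted p = 0.0102) and lost that call in the 14 libraries (-0.36, adjusted p = 0.0745), with offsets for GC content (-0.30, adjusted p = 0.0502) and when only these groups were fitted (-0.61, adjusted p = 0.0733). Nfil3, a repressor at D-boxes, rose by 0.92 in WT (adjusted p = 0.00781), with 0.67 and no call in the 14 libraries (adjusted p = 0.0638), and differed by 0.48 in TTPΔARE mice (adjusted p = 0.233).

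The cryptochromes, partners of the period proteins, were not called. Cry1 differed by -0.12 in WT and 0.14 in TTPΔARE mice, and Cry2 by -0.14 and -0.16. Between genotypes in A, Hlf was higher in TTP-A than in WT-A by 0.67 (edgeR adjusted p = 0.0111; 14 libraries 0.59, adjusted p = 0.0364), and so was Rora by 0.68 (adjusted p = 0.0211; 14 libraries 0.42, adjusted p = 0.0825). Rora also lost that call without WT-A 3 (0.60, adjusted p = 0.0744), TTP-A 2 (0.64, 0.0513) or TTP-A 3 (0.72, 0.0511). When only TTP-A and WT-A were fitted, neither was called (Hlf adjusted p = 0.0535, Rora 0.110), and 1 gene of all genes tested was. The interaction was not called for Hlf (adjusted p = 0.163) or Rora (0.188).

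Of 10 genes known as rhythmic outputs of the clock in peripheral tissues, 4 were called lower in A in each genotype and none was called higher, beside 8.99% of all genes lower in WT and 1.35% in TTPΔARE mice. In the 14 libraries 977 of all genes were called in TTPΔARE mice in either direction, against 446 in 16 libraries. In those 14 libraries 6 of the 10 output genes were called lower, and Lonrf3 higher (0.48, edgeR adjusted p = 0.00755; 16 libraries 0.48, adjusted p = 0.0570). The median log2 difference was -0.44 in WT and -0.27 in TTPΔARE mice. Usp2, a ubiquitin protease gene, fell by 0.93 in WT (edgeR adjusted p = 0.000603) and by 0.95 in TTPΔARE mice (adjusted p = 0.000466). Tsc22d3, which encodes GILZ and is also a textbook glucocorticoid target, fell by 0.84 (adjusted p = 0.000215) and by 0.86 (adjusted p = 0.000191). Herpud1, of the endoplasmic reticulum stress response, fell by 0.48 (adjusted p = 0.00434) and by 0.55 (adjusted p = 0.00733). Wee1, a cell cycle kinase gene, fell by 0.48 in WT (adjusted p = 0.00562) and differed by -0.37 in TTPΔARE mice (adjusted p = 0.0547), where it passed in 5 of the other 9 settings, among them DESeq2 (adjusted p = 0.0136), the 14 libraries (0.037) and the replicate block (0.0465), and missed the threshold on leaving out any single TTP-S or TTP-A library.

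Por, the P450 reductase gene, fell in TTPΔARE mice by 0.33 (edgeR adjusted p = 0.0198) and differed by 0.03 in WT (adjusted p = 0.780). That call was lost without TTP-S 2 (-0.31, adjusted p = 0.0682), TTP-S 4 (-0.32, 0.0794), TTP-A 1 (-0.31, 0.0871) or TTP-A 4 (-0.31, 0.0811). A list of 8 glucocorticoid-induced genes, which shares Tsc22d3 with the output list, had 5 called lower and 1 higher in WT mice (4 and 1 in the 14 libraries), beside 8.99% and 9.8% of all genes, and 5 called lower in TTPΔARE mice, beside 1.35%. Its summed level was 659 to 847 CPM in WT-S and 534 to 565 in WT-A, and 801 to 964 in TTP-S and 540 to 689 in TTP-A. The summed level of the 10 clock genes was 663 to 818 CPM in S and 521 to 542 in A for WT mice, and 744 to 890.1 in S and 566 to 607 in A for TTPΔARE mice. Whether either list follows the other was not tested.

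**Figure D4:**
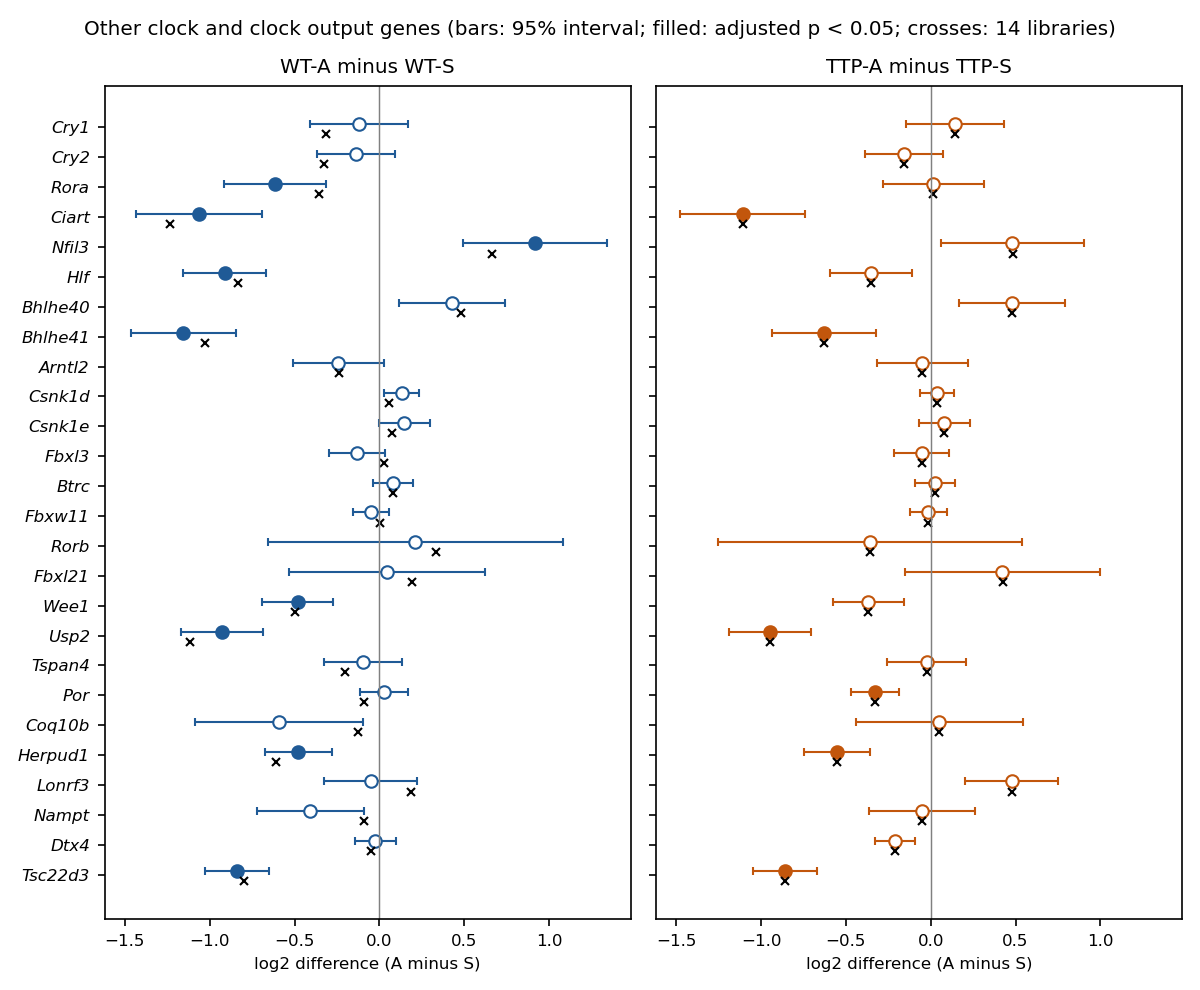
Log2 difference of A from S for 16 of the 17 other clock genes (Cry1 to Fbxl21) and 10 clock output genes (Wee1 to Tsc22d3), in WT mice (left) and TTPΔARE mice (right). Points are edgeR estimates with 95% intervals, filled where the adjusted p is under 0.05, and crosses are the 14-library estimates. Ciart, Bhlhe41, Usp2, Herpud1 and Tsc22d3 are filled on the lower side in both panels, and Nfil3 alone is filled on the upper side, in WT.

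Within groups some members varied together from library to library and others in opposite directions. Each library's deviation of log2 CPM from its group mean was used, so differences between groups do not enter. Over 16 libraries Per3 and Tef had a Pearson r of 0.93, Dbp and Tef 0.84, Per3 and Dbp 0.79, and Nr1d1 and Dbp 0.72. Arntl ran the other way, with r of -0.88 against Tef and -0.77 against Per3. Of the 21 pairs among the repressor and output genes, 16 had a positive r, and of the 21 pairs of such a gene with an activator, 17 had a negative r. In the 14 libraries these counts were 20 and 16. The 3 pairs of activators had r from -0.35 to 0.51, and over all 45 pairs 22 were positive and 23 negative (0.02 to 0.57, and 28 and 17, in the 14 libraries). These are descriptions with no test, and the points share library scaling.

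The highest r of a repressor with an activator was that of Nr1d2 and Clock, 0.90 in 16 libraries and 0.09 in 14 without the GC pair. Without that pair Nr1d2 followed the output genes, with r of 0.92 against Per3 and 0.82 against Tef, where 16 libraries gave 0.02 and -0.01. The libraries behind the pattern were spread over groups. WT-S 1 was the lowest of WT-S for Per1, Per3, Nr1d1, Nr1d2, Dbp and Tef and the highest for Arntl, while Per2 and Clock were highest and Npas2 lowest there. TTP-S 3 was the highest of TTP-S for Per3, Nr1d2, Dbp and Tef and the lowest for Arntl, while Npas2 was also lowest there, and Clock and Per2 highest.

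For 3 relations a test was made by permuting libraries within groups 100000 times, two-sided. Dbp and Arntl had r = -0.58 (permutation p = 0.0436, 0.131 after Benjamini-Hochberg adjustment over the 3) and Spearman rho = -0.55 (permutation p = 0.0584, adjusted 0.175), with opposite sides of the group mean in 11 of 16 libraries. Without the libraries farthest out for Dbp, WT-S 1 and TTP-S 4, r was -0.52, so the sign stayed while the relation did not pass the adjusted test. Nr1d1 and Arntl had r = -0.15 (permutation p = 0.538, adjusted 0.538) and rho = -0.17 (permutation p = 0.494, adjusted 0.494), and -0.25 as r without WT-S 1 and TTP-A 3. Per1 and Per2 had r = 0.29 (permutation p = 0.355, adjusted 0.532) and rho = 0.31 (permutation p = 0.294, adjusted 0.441), and r = 0.29 without TTP-S 2 and WT-S 1.

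**Figure D5:**
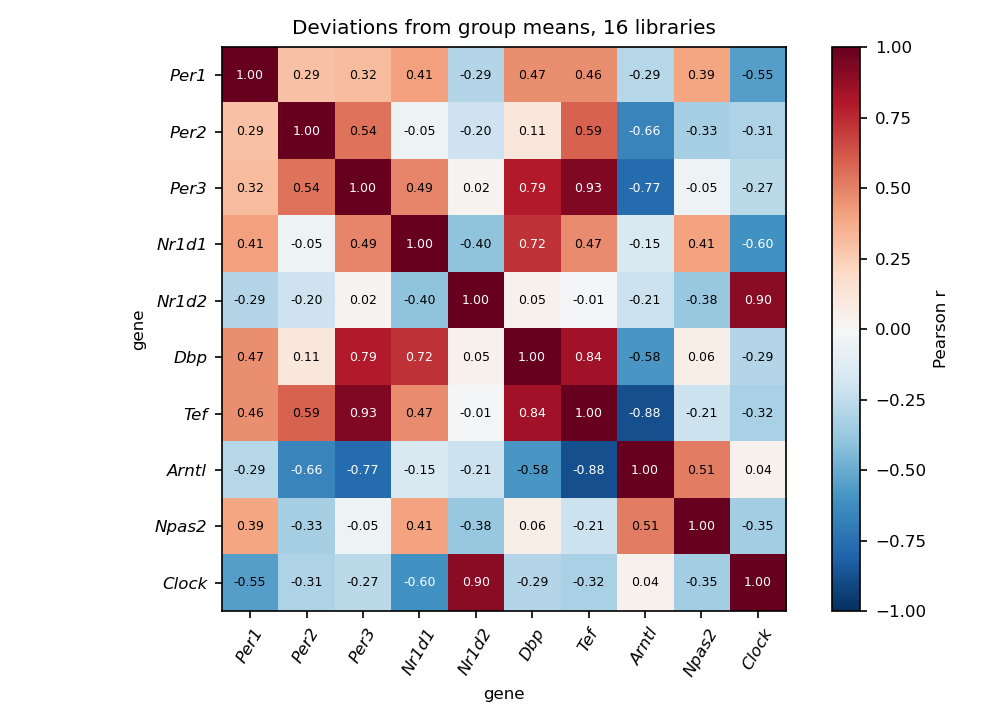
Pearson r between clock genes over 16 libraries, computed on deviations of log2 CPM from the group means (colour scale from -1 to 1). Per3, Dbp and Tef form a block of high positive values (0.79 to 0.93), Arntl is negative against them, and the high value of Nr1d2 with Clock (0.90) falls to 0.09 without WT-A 3 and WT-A 4.

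To find other genes with this pattern, the mean log2 CPM of Nr1d1, Dbp, Tef and Per3 minus that of Arntl, Npas2 and Clock was taken in each library. In WT mice it was 2.29 ± 0.206 in S and 1.84 ± 0.21 in A, and in TTPΔARE mice 2.19 ± 0.373 in S and 1.93 ± 0.272 in A (SD, n = 4). Its within-group deviations were correlated with those of 11580 genes with a mean log2 CPM over 2, as a description with no test. Among the 5 highest r over 16 libraries were those of Col24a1 (0.90), Flot1 (0.87), Plekhg5 (0.84) and Tgfbr3l (0.84). The lowest were those of Atp6v1g1 (-0.84), Eef1e1 (-0.82), Spcs2 (-0.80), Mrps22 (-0.80) and Calr (-0.80).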

How the data were processed

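The authors deposited whole-number read counts per gene symbol for 16 libraries of stomach corpus. Per the submitters' processing notes, STAR 2.7.0f, featureCounts, Subread 1.6.4, DESeq2 and the build mm10 were used. The annotation, strandedness and filters are not given in the sources used here. Groups and replicate numbers came from the sample titles. In the 24 within-group pairs, counts differed by more than sampling noise (chi-square of 4.69 to 89.5 for each degree of freedom), so none looked like a library deposited again. Each library was used as a replicate as its label gives it.

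Counts were tested with edgeR 4.0.16 in R 4.3.3 (quasi-likelihood with legacy=TRUE, filterByExpr, TMM scaling, a mean per group over all 16 libraries). Benjamini-Hochberg adjustment ran over 15385 genes, and called means an adjusted p under 0.05. Each SE is the one implied by the test statistic. CPM is relative to TMM-scaled totals, and log2 CPM used a prior count of 2. No gene tests were adjusted over the members alone. Promoters came from RefSeq, GRCm38.p6, and transcript GC content (98.9% of genes tested) and exon lengths from GENCODE. The members had 117 to 3456 counts per library.

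Alternatives were DESeq2 1.42.0 (size factors and Wald test), no filter and a filter of 10 counts in 8 libraries, edgeR with legacy=FALSE, only the groups compared, a replicate block, 14 libraries without WT-A 3 and WT-A 4, and leaving out each library. GC offsets from a loess curve (span 0.5) were chosen after seeing the data, as was the look at overlapping genes. The procedures were tested on simulated data. The members and gene lists were chosen with earlier results of these data known. The rule for named genes took all members in every comparison, allowed called genes of the other clock, output and glucocorticoid lists and uncalled other clock genes, and took those most like the members by the highest and lowest 5 correlations. Lonrf3 and the called immune markers were named after their values were seen, and the other lists are given by counts. The values of 1 gene that the rule names are not reported here.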

Additional observations from a re-analysis of the deposited data

Results flagged for a closer look

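In 40 groups of 4 libraries (10 genes in 4 groups), 3 had a library far from the others by Dixon's test at the 95% level. Chance alone picks out about 1 in 20 groups. Dbp in WT-S 1 was at 68.2 CPM, the lowest of WT-S, and its gap to the next library took up 0.856 of the range. Per3 in the same library was at 46.4 CPM, with a gap of 0.845 of the range. Nr1d2 in TTP-S 3 was at 136 CPM, the highest of TTP-S, with a gap of 0.858 of the range. Within groups Dbp and Per3 had a Pearson r of 0.79. Without WT-S 1 the differences of WT-A from WT-S grew to -0.78 for Dbp and -0.58 for Per3, and both were called by edgeR.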

How the results depend on the processing

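Counts per library were lowest for Npas2 (117 to 257), and each group had 4 libraries. Called members numbered 5 in WT-A against WT-S, 4 to 6 under the alternatives and 5 with a replicate block. In TTP-A against TTP-S the 3 called became 5 in the 14 libraries, 5 with only the groups compared and 4 with the replicate block, and 2 to 4 on leaving out a library. In TTP-A against WT-A 0 became 1 with DESeq2, and 0 to 2 on leaving out a library. TTP-S against WT-S and the interaction gave 0 throughout. Of the member values and other genes reported, signs turned only where the difference was not called, and the cause was not tested. Clock in WT (-0.26) was 0.016 in the 14 libraries and 0.055 with GC offsets, an alternative chosen after seeing the data. Clock in TTP-A against WT-A was -0.022 in the 14 libraries and -0.026 with GC offsets, and Npas2 there 0.00061 in the 14 libraries. In the same comparison and these 2 settings, Nr1d1 (-0.048) was 0.134 and 0.071 and Dbp (-0.080) 0.0015 and 0.054, and the Clock interaction was -0.026 and -0.044. With GC offsets Clock in TTPΔARE mice was 0.011 and the Dbp interaction 0.044. Npas2 in WT was 0.0014 with the replicate block. Leaving out each library gave -0.13 (WT-S 1) to 0.10 (WT-S 2) for Npas2 in WT and -0.17 (TTP-S 4) to 0.040 (WT-S 1) for the Dbp interaction. For TTP-S against WT-S it gave -0.012 to 0.036 for Clock, -0.12 to 0.088 for Dbp, -0.047 to 0.063 for Nr1d2, -0.044 to 0.13 for Per2 and -0.091 to 0.046 for Tef, and for Nr1d1 in TTP-A against WT-A -0.13 to 0.037. In TTPΔARE mice it gave -0.12 (TTP-S 3) to 0.16 (TTP-S 4) for Arntl, -0.041 (TTP-S 2) to 0.015 (TTP-A 1) for Clock, and -0.047 (TTP-S 4) to 0.058 (TTP-S 2) for Rora. Deviations of same-numbered libraries had r from -0.42 to 0.33, over 0.1 in 4 of 16 pairs. With 4 libraries in a group, these values cannot decide whether the replicate numbers pair the libraries.

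Counts of all genes called moved more. WT-A against WT-S gave 2891, or 675 with only the groups compared, 1620 in the 14 libraries and 1254 to 4977 on leaving out a library. TTP-A against TTP-S gave 446, or 854 with DESeq2, 1195 with only the groups compared, 977 in the 14 libraries, 750 with GC offsets and 60 to 937 on leaving out a library. TTP-S against WT-S gave 5, or 92, 60, 57 and 36 in that order of settings, 9 with legacy=FALSE and 1 to 15. TTP-A against WT-A gave 796, or 1629 with DESeq2, 1 with only the groups compared, 292 in the 14 libraries and 86 (without WT-A 3) to 3202 (without WT-A 1). The interaction gave 9, or 257 with DESeq2, 46 in the 14 libraries, 23 with GC offsets, 4 with the replicate block and 2 to 211. Other clock genes called in WT fell from 5 to 3 in the 14 libraries and reached 8 without WT-S 1, and in TTPΔARE mice 2 became 4 with DESeq2 or only the groups compared. Clock output genes called in TTPΔARE mice rose from 4 to 7 with DESeq2, with only the groups compared or in the 14 libraries, where 6 were lower and 1 higher.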
